A study of Mus musculus with 24 samples.

Results

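Transcripts of B cells and plasma cells, 8 genes in all, were followed in mouse liver after a long high-fat diet. They were Cd79a, Cd79b, Ms4a1, Ighm, Igkc, Igha, Jchain and Mzb1, taken as a list of gene symbols. The list sets no limit on any measured value, but it was drawn up with earlier results of these data known. Each was found once among the 56205 genes of the count table, and all 8 were among the 17913 genes tested. RNA-Seq was performed on poly(A)-selected RNA from whole livers of 24 mice. In the high-fat (FFD) group, 12 C57BL/6J mice had eaten a high-fat feed based on palm oil with fructose and cholesterol, and 12 had eaten its control diet, both for 20 weeks from young adulthood. The labels name no genetic change or drug in either group. Males and females were both used, but no library was labelled by sex.

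A B cell displays an antibody on its surface and signals through Cd79a and Cd79b, the pair of chains that associate with that antibody and carry the activating motif. Ms4a1 encodes CD20, a membrane protein of mature B cells. When a B cell becomes a plasma cell, it makes antibody for secretion. Heavy chains give an antibody its class (Ighm for IgM, Igha for IgA), Igkc is the constant part of the kappa light chain, Jchain joins IgM or IgA units into polymers, and Mzb1 assists antibody folding in the endoplasmic reticulum. The healthy liver holds few of these cells. IgA from plasma cells is carried across epithelium by the receptor Pigr.

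In the GENCODE M21 annotation of GRCm38, Cd79a lay on chr7:24897381-24902197 (plus strand), Cd79b on chr11:106311341-106314762 (minus), Ms4a1 on chr19:11249675-11266241 (minus) and Jchain on chr5:88519809-88527891 (minus). The Ighm and Igha constant genes lay at chr12:113418558-113422730 and chr12:113254830-113260236, both on the minus strand, and Igkc at chr6:70726435-70726966 on the plus strand. Promoter sequence was at hand for Cd79a and Jchain, which stand for the antigen receptor and the secreted antibody in the results. Both are shown 5′ to 3′ from RefSeq on GRCm38.p6, Cd79a as chr7:24897247-24897410 (plus strand) and Jchain as chr5:88527868-88528147 (minus strand). Capitals mark motif matches, with 5 motifs searched on both strands:
Cd79a: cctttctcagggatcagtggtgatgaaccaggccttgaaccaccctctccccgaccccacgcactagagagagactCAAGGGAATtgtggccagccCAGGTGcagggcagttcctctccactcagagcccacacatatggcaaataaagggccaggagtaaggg
Jchain: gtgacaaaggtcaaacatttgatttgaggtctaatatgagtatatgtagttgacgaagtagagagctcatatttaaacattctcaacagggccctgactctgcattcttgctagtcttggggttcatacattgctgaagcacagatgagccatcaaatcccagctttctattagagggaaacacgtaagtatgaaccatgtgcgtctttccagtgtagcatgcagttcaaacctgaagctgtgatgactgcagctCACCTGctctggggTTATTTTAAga
The Cd79a capitals are CAAGGGAAT, a sequence known to bind EBF1, and CAGGTG, an E box. They began 174 and 154 bases before the RefSeq start. Another match, AGGAAGTG (an ETS form), began 55 bases before that start, beyond the stretch shown. In Jchain, the E box read on the other strand began 5 bases after the start and TTATTTTAA, a MEF2 form, 19 bases after it. Among 32851 promoter windows of the same length, CAAGGGAAT was in 0.244%, TTATTTTAA in 0.706%, AGGAAGTG in 4.07% and CAGGTG in 20.2%. The octamer ATGCAAAT, in 1.74% of windows, was in neither.

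The libraries held between 14468418 and 22112552 counts, so that 3 counts corresponded to 0.118 to 0.305 CPM (counts scaled to an equal library size, corrected by TMM, the trimmed mean of M values). Xist, the transcript of the inactive X chromosome, split the libraries cleanly. It had 2664 to 6285 counts in 6 libraries of each diet and 0 to 3 in the other 6 of each diet. These sets are called the Xist-above and Xist-below libraries (above or below 1000 counts), and the results are given over all 24 libraries and within each set. High-fat replicate 3 stood apart in blood cell genes, with 1242 S100a8 counts against at most 37 in the other high-fat libraries and 20341 Hba-a1 counts against at most 2977. Control replicate 10 had the lowest depth and the lowest TMM factor, 0.679. The TMM factors did not overlap between the diets in the Xist-below libraries, at 1.12 to 1.34 in high-fat livers and 0.679 to 0.956 in controls. In the Xist-above libraries they overlapped, at 0.994 to 1.06 and 0.892 to 1.01. The log2FC in the Xist-below libraries therefore depends on the scaling. Whole liver was the tissue, so that fewer cells of a type and less RNA per cell cannot be told apart. Albumin (Alb) was abundant in every library, at no less than 482163 counts.

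The members differed widely in level. Per kilobase of M21 exon, the mean over 24 libraries was 17.1 ± 11.5 CPM (SD) for Igkc and 16.0 ± 9.24 for Ighm, which did not differ beyond their spread. The next genes were Cd79b at 1.30 ± 0.644, Cd79a at 1.19 ± 0.610, Jchain at 0.948 ± 0.619 and Igha at 0.620 ± 0.589 CPM per kilobase. Mzb1 (0.213 ± 0.153) and Ms4a1 (0.0875 ± 0.0511) were lowest. Neighbours in this order did not differ beyond their spread, except Ighm and Cd79b. Mzb1 had 0 to 16 counts a library and Ms4a1 1 to 27, so both were measured at low precision.

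Over all 24 libraries, none of the 8 genes was called by edgeR's quasi-likelihood test at the study's limits of FDR ≤ 0.01 and |log2FC| > 0.5. Of all genes tested, 13.2% were called higher and 4.99% lower with the high-fat diet, 18.2% in all. DESeq2 and limma-voom also called 0 of the 8, against 20.2% and 17.9% of all genes. Without high-fat replicate 3 and control replicate 10, a fit added after the data were seen, 0 of 8 were called against 19.3% of all genes, with Igha at 0.85 (adjusted p = 0.0951) and Ighm at −0.62 (adjusted p = 0.0774). The lowest unadjusted p among the 8 was that of Igha (edgeR, p = 0.0156). The median log2FC of the members was 0.02, beside −0.03 over all genes.

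**Figure D1:**
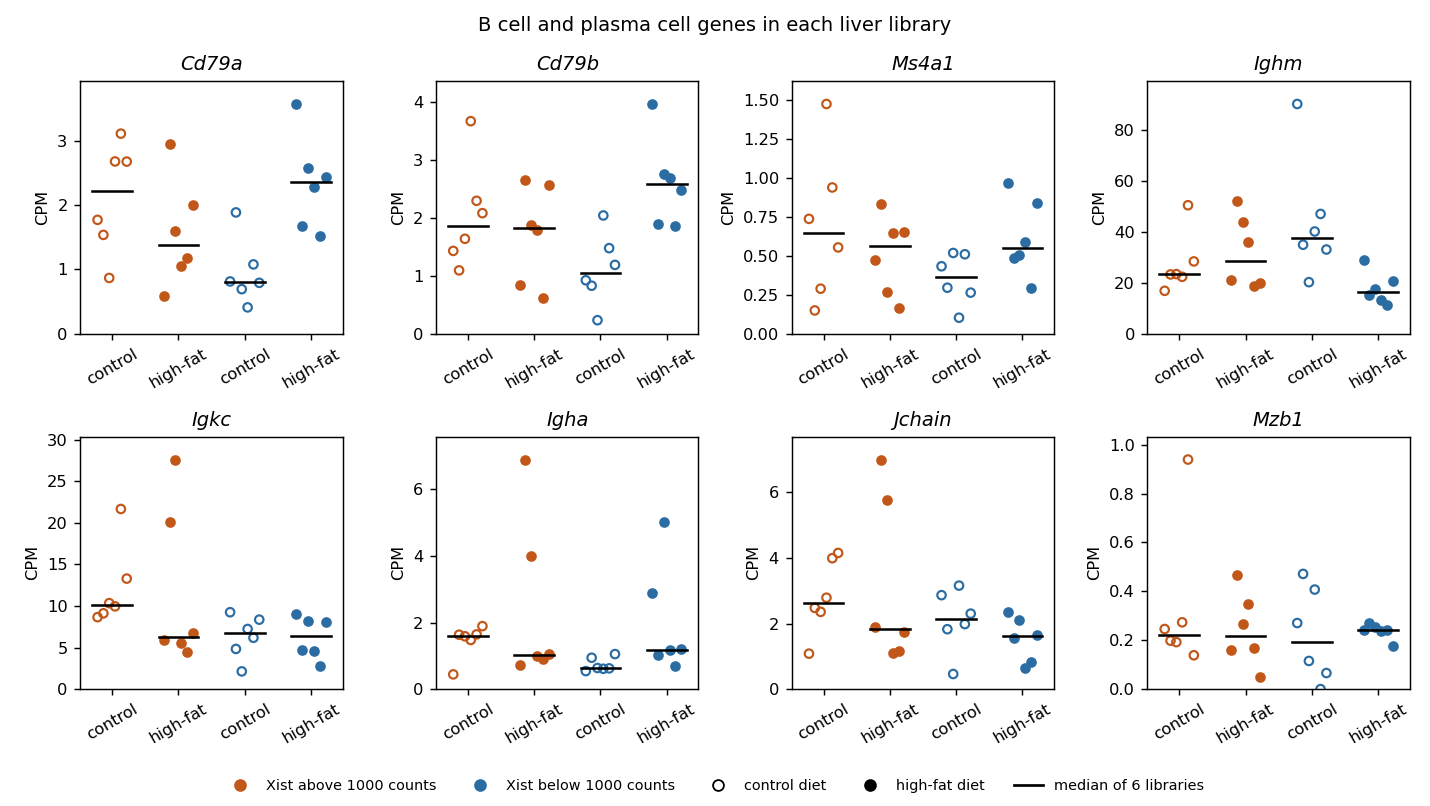
CPM of each gene (y axis, linear from 0) in each library, by diet and by Xist set, with lines at the median of 6 libraries. In the Xist-below libraries the medians of Cd79a and Cd79b are higher, and that of Ighm lower, in high-fat livers. The diets overlap for every gene in both sets.

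The antigen receptor genes came first. Cd79a had 11 to 74 counts in high-fat libraries (median 35.5) and 4 to 58 in control libraries (median 25). The diets overlapped, with 1 high-fat library above the highest control in CPM. Its log2FC was 0.35 (SE 0.30, adjusted p = 0.377). Cd79b had 11 to 82 counts (median 44.5) in high-fat livers and 4 to 67 (median 24) in controls. Its log2FC was 0.46 (SE 0.30, adjusted p = 0.222). Ms4a1 had 3 to 20 counts (median 12.5) against 1 to 27 (median 8.5), with a log2FC of 0.09 (SE 0.34, adjusted p = 0.856). The 95% intervals left room for changes either way, from −0.24 to 0.93 for Cd79a, from −0.12 to 1.05 for Cd79b and from −0.57 to 0.75 for Ms4a1.

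Of the antibody chains, Ighm was the highest in counts, with 229 to 1002 (median 406) in high-fat livers and 341 to 1665 (median 493) in controls. In CPM, 3 high-fat libraries lay below every control, and the highest control, replicate 7, lay above every high-fat library. The log2FC of Ighm was −0.53 (SE 0.27, adjusted p = 0.120). Igkc did not separate the diets, at 56 to 518 counts (median 125) against 37 to 369 (median 173.5), and its log2FC was −0.05 (SE 0.34, adjusted p = 0.921). Without high-fat replicate 3, its highest library and the one with blood cell genes, that value was −0.35. In the Xist-above libraries, 4 of 6 high-fat livers lay below every control for Igkc and 1 lay above every control, with a log2FC of −0.05 (SE 0.40, adjusted p = 0.959).

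Igha was the member with the largest log2FC. It had 14 to 133 counts (median 24) in high-fat livers and 6 to 41 (median 16) in controls. In CPM, 4 of 12 high-fat libraries lay above every control and 5 controls lay below every high-fat library. The highest were high-fat replicates 2 (133 counts), 9 (119) and 3 (75). The log2FC was 1.01 (SE 0.39, 95% interval 0.24 to 1.77, adjusted p = 0.0414), which missed the limit of 0.01. It was 0.71 without high-fat replicate 2 and 0.68 with limma-voom (adjusted p = 0.175). The median CPM differed little, at 1.12 in high-fat livers and 0.998 in controls. In the Xist-above libraries the median was lower in high-fat livers, at 1.02 against 1.61, though the mean was higher, at 2.43 against 1.45. The log2FC of Igha there was 0.75 (SE 0.52, edgeR adjusted p = 0.392).

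Jchain and Mzb1 showed no difference past the test. Jchain had 16 to 135 counts (median 35.5) against 8 to 90 (median 42), with a log2FC of −0.08 (SE 0.35, adjusted p = 0.871). High-fat replicates 2 (135) and 3 (108) were again the highest libraries. Mzb1 had 1 to 9 counts against 0 to 16 and a log2FC of −0.18 (SE 0.40, adjusted p = 0.754).

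The diets were then compared within each Xist set. In the Xist-below libraries, from a model with a mean for each diet and set, Cd79a and Cd79b were called higher and Ighm lower in high-fat livers, 3 of 8 members, where 16% of all genes were called higher and 10.5% lower. Cd79a had 31 to 74 counts (median 56.5) in the 6 high-fat libraries and 4 to 32 (median 13.5) in the 6 controls. In CPM, 4 high-fat libraries lay above every control. The log2FC was 1.28 (SE 0.37, adjusted p = 0.00614). Cd79b had 35 to 82 counts (median 60.5) against 4 to 26 (median 17.5), with a log2FC of 1.27 (SE 0.38, adjusted p = 0.00923). Ighm went the other way, from 350 to 1665 counts (median 546) in controls to 229 to 600 (median 374.5) in high-fat livers. In CPM, 5 of 6 controls lay above every high-fat library, and its log2FC was −1.32 (SE 0.32, adjusted p = 0.00188). Igha reached 1.44 (SE 0.56, adjusted p = 0.0378) and was not called. Without high-fat replicate 9 it was 0.91 (adjusted p = 0.188).

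These calls lay near the limit. When each of the 12 Xist-below libraries was left out in turn, Cd79a and Cd79b were each called in 4 of 12 fits, with log2FC from 1.11 to 1.60 and from 1.05 to 1.49 and adjusted p up to 0.0199 and 0.0278. Ighm was called in 11 of 12, and its value without control replicate 7 was −0.98 (adjusted p = 0.0106). Fitted on the Xist-below libraries alone, the adjusted p was 0.00598 for Cd79a, 0.0124 for Cd79b and 0.00479 for Ighm. By that fit 22.2% of all genes were called. Scaled by library totals in place of TMM, Ighm had a log2FC of −0.85 (adjusted p = 0.0272) and Igha 1.94 (adjusted p = 0.00589). By that scaling Ighm was no longer called and Igha was. Cd79a and Cd79b were called, at 1.72 and 1.75 (edgeR adjusted p = 5.2e-04 and 3.7e-04).

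In the Xist-above libraries, none of the 8 genes was called, against 2.76% of all genes called higher and 3.62% either way. The log2FC was −0.43 (SE 0.35, adjusted p = 0.484) for Cd79a, −0.23 (SE 0.37, adjusted p = 0.749) for Cd79b and 0.22 (SE 0.32, adjusted p = 0.720) for Ighm. Cd79a had 11 to 57 counts in high-fat livers and 18 to 58 in controls there. The diet difference itself was compared between the sets by an interaction term in edgeR, Xist-below minus Xist-above. It was 1.71 (SE 0.51, adjusted p = 0.0306) for Cd79a, 1.5 (SE 0.53, adjusted p = 0.0726) for Cd79b and −1.54 (SE 0.45, adjusted p = 0.0302) for Ighm. None passed 0.01, where 2.57% of all genes were called higher and 4.04% either way. With library totals, Cd79a was at 2.03 (adjusted p = 0.00943) and Ighm at −1.20 (adjusted p = 0.0622).

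The sets were also compared within each diet. Cd79a was 1.12 higher on the log2 scale in Xist-above than in Xist-below controls (SE 0.37, adjusted p = 0.0490), and Ighm differed by −0.69 (SE 0.32, adjusted p = 0.187). In high-fat libraries the same differences were −0.59 (SE 0.35, adjusted p = 0.283) and 0.84 (SE 0.32, adjusted p = 0.0770). None was called in either diet, against 5.74% and 6.39% of all genes.

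**Figure D2:**
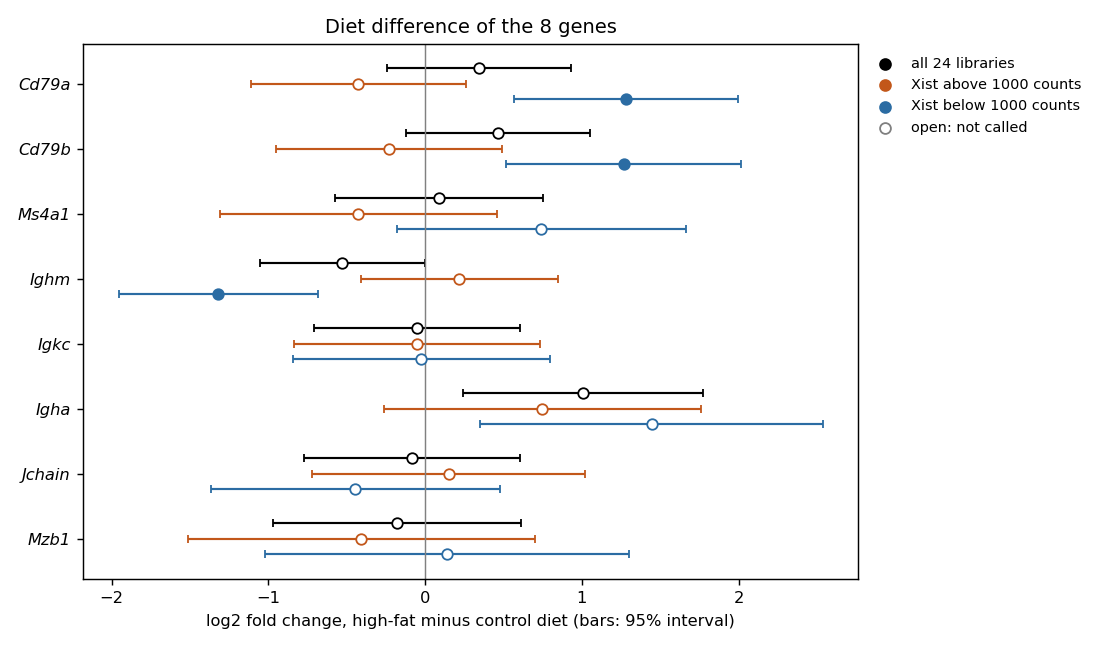
log2FC of each gene (x axis, high-fat minus control, bars 95% interval) over all 24 libraries and within each Xist set, with filled points for called genes. The called genes are Cd79a (1.28), Cd79b (1.27) and Ighm (−1.32) in the Xist-below libraries.

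The mix of antibody classes was then followed as the percentage of all counts on heavy chain constant genes, of which a library held 285 to 1737. Ighm took 78.1% ± 8.03 (SD, n = 12) in high-fat livers and 86.9% ± 7.06 (SD, n = 12) in controls. The difference was −8.85 percentage points (two-sided permutation test with 100000 resamples, p = 0.00844, adjusted p = 0.0464 over 11 constant genes). Igha took 6.48% ± 4.26 against 3.17% ± 1.81, a difference of 3.30 points by the same permutation test (p = 0.00724, adjusted p = 0.0464). For Igha, 11 of 12 high-fat libraries lay above the control median. Because the shares add up to a whole, a lower share of Ighm raises the others, and the 2 results are not independent.

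The other classes were not separated over all libraries. Ighd, the gene of IgD, took 3.61% ± 2.24 against 2.30% ± 1.89 (permutation, adjusted p = 0.296). The 4 IgG genes together took 11.9% ± 7.34 against 7.63% ± 4.47 (permutation p = 0.0952), and Ighg2c alone 4.48% ± 2.77 against 2.09% ± 1.65 (permutation, adjusted p = 0.0689). High-fat replicate 3, the library with blood cell genes, held the highest counts of Ighg2b (149), Ighg3 (105) and Ighg1 (64). Ighe had 1 count in all libraries together. Igkc took 87.1% ± 4.50 of the light chain constant counts against 89.4% ± 4.54 (permutation, adjusted p = 0.421), with the rest on Iglc1, Iglc2 and Iglc3.

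Within the Xist-below libraries the shares of 3 heavy chain genes did not overlap between the diets. In that set 16% of all genes were called higher and 10.5% lower in level. A count of non-overlap over all genes is not given here. Ighm ran from 63.4% to 83.2% (median 81.4%) in high-fat livers and from 88.4% to 96.1% (median 92.1%) in controls. Igha lay between 4.82% and 18.3% (median 6.54%) against 0.576% to 2.82% (median 1.94%), and Ighd from 2.68% to 6.87% (median 5.90%) against 0.734% to 2.04%. For each of the 3 the exact permutation p was 0.002165, the smallest that 6 against 6 libraries allow (adjusted p = 0.0159 over 22 tests). In the Xist-above libraries the shares overlapped, with means of 4.82% and 4.46% for Igha (exact permutation p = 0.810) and 77.9% and 81.5% for Ighm (p = 0.437, exact). The medians there went the other way. They were 4.056% in high-fat livers and 5.175% in controls for Igha, and 79.98% and 79.74% for Ighm. The difference between the sets was not tested for shares.

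**Figure D3:**
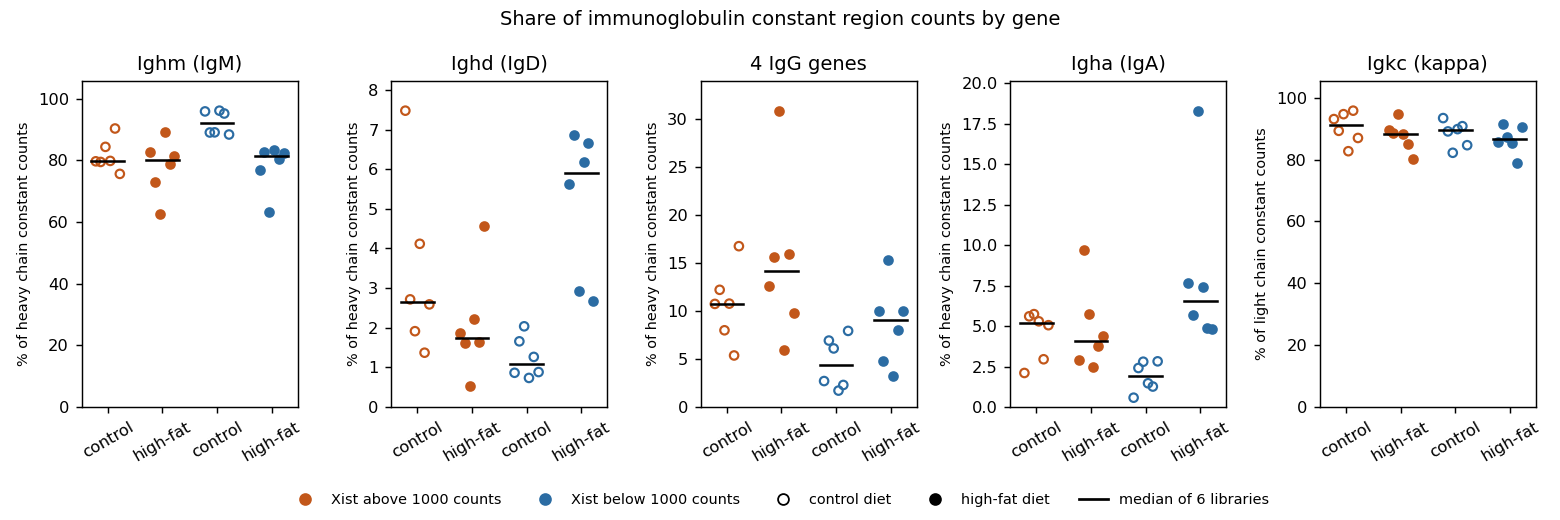
Percentage of heavy chain constant counts on Ighm, Ighd, the 4 IgG genes and Igha, and of light chain constant counts on Igkc (y axes from 0), in each library. In the Xist-below libraries the Igha share is 4.82% or more in all 6 high-fat libraries and 2.82% or less in all 6 controls.

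The variable segments, which encode the antigen binding part of antibodies, were counted as well. Of 218 variable segments in the table, 171 had a count. A library held 62 to 436 variable segment counts (median 143.5) on 35 to 95 segments in high-fat livers, and 28 to 304 counts (median 151) on 11 to 70 segments in controls. Counts did not separate the diets (permutation p = 0.683, n = 12 each). Of 39 segments tested across all genes, 0 were called higher and 1 lower, beside 13.2% and 4.99% of all genes. The segment with most counts took 5.84% to 13.9% of a high-fat library and 6.09% to 28.6% of a control library (permutation p = 0.0308, unadjusted). The highest value came from control replicate 10, which held 28 such counts (8 on Igkv4-55, exact 95% interval 13.2% to 48.7%, counting error only). Reads of near-identical segments can be split between them, so the shares are uncertain.

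Correlations between members were computed across animals within each diet. Over the 12 high-fat libraries, the correlation of log2(CPM + 1) was r = 0.88 for Cd79a with Cd79b (Spearman's rho = 0.93, adjusted permutation p = 0.00364 and 0.00224) and r = 0.94 for Igkc with Jchain (rho = 0.92, adjusted permutation p = 0.00364 and 0.00224). The r stayed at 0.78 and 0.80 when the 2 libraries most distant in the first gene were dropped. With the set means subtracted they were 0.84 and 0.93 (adjusted permutation p = 0.0167 for both). Over the 12 control libraries, the Igkc and Jchain pair gave r = 0.82 (rho = 0.74, adjusted permutation p = 0.0135 and 0.0643), and Cd79a with Cd79b gave r = 0.51, which did not pass. Cd79b had higher values there with Igkc (r = 0.72) and Jchain (r = 0.70), neither past the test (adjusted permutation p = 0.0659 for both). The Cd79a and Cd79b value in controls rested on few counts, down to 4 a library. For r, 7 of 28 pairs passed an adjusted p of 0.05 in high-fat livers and 1 of 28 in controls, adjusted over 56 relations in all. Mzb1 passed with no other member in either diet, and its r with Igkc, Igha and Jchain lay between 0.38 and 0.57 in high-fat livers. The difference between the diets was not tested.

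Pairs were then taken between the B cell genes and the plasma cell genes. None of the 9 pairs between Cd79a, Cd79b or Ms4a1 and Igkc, Igha or Jchain passed for r in either diet, with r from 0.18 to 0.62 in high-fat livers and from 0.04 to 0.72 in controls. By rank, Cd79a with Igha passed in high-fat livers (rho = 0.81, adjusted permutation p = 0.0307, r = 0.62). Ighm, though grouped with the B cell genes, correlated in high-fat livers with Igkc (r = 0.84, rho = 0.76, adjusted permutation p = 0.0135 and 0.0643) and Jchain (r = 0.81, rho = 0.71, adjusted permutation p = 0.0135 and 0.0799). The first fell to 0.61 and the second to 0.45 without the 2 farthest libraries. Its r with Cd79a was 0.14 in high-fat livers and −0.16 in controls. With the set means subtracted, these were 0.65 and 0.26, neither past the test (adjusted permutation p = 0.152 and 0.580). The r of Ighm with the other 7 members, so treated, lay between 0.58 and 0.83 in high-fat livers. In controls it lay between 0.095 and 0.85. The r of Ighm with Igkc in controls was 0.25, and 0.85 with the set means subtracted (adjusted permutation p = 0.0167).

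**Figure D4:**
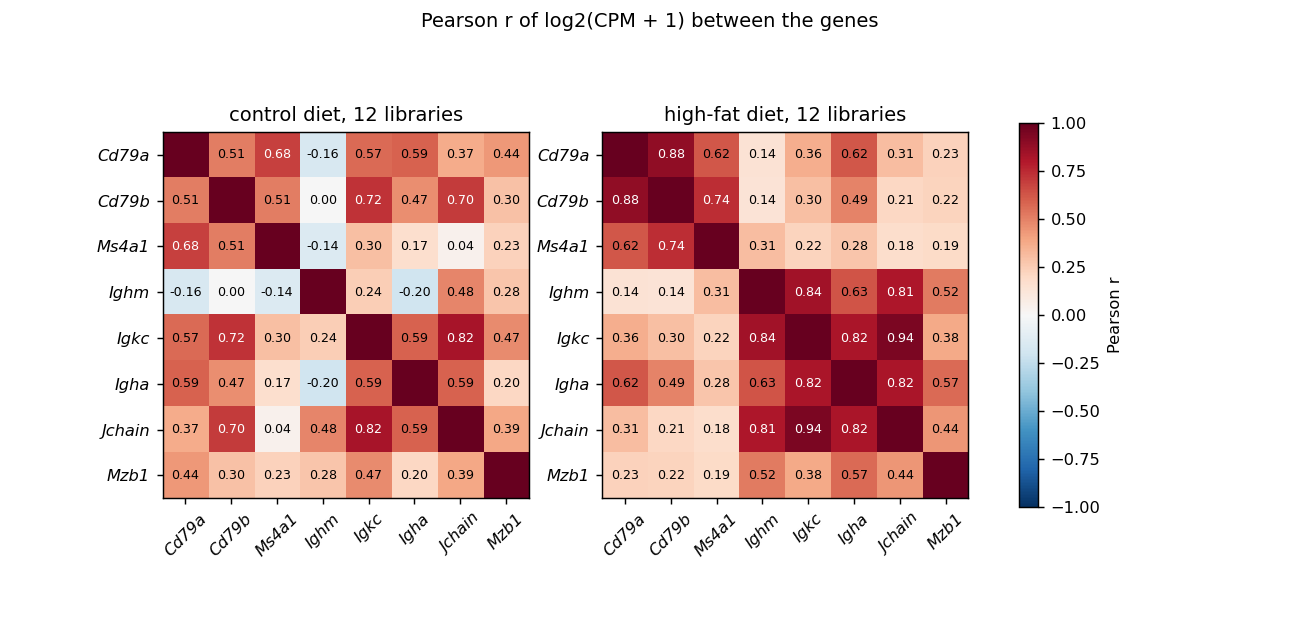
Pearson r of log2(CPM + 1) for each pair of genes (both axes list the 8 genes) over 12 control and 12 high-fat libraries, on a colour scale from −1 to 1. The Igkc and Jchain pair is at 0.82 in controls and 0.94 in high-fat livers, and Ighm with Cd79a at −0.16 and 0.14. The set means are not subtracted. With them subtracted, Ighm with Cd79a is at 0.26 and 0.65.

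Genes outside the immunoglobulins were ranked by likeness, the mean r of their deviations from the diet mean with 4 members over 24 libraries, among 13776 genes. Beside Cd79a, Cd79b, Ms4a1 and Ighm, the most alike was Spib, a transcription factor of B cells, at 0.55, then Fcmr, a receptor for IgM, at 0.51. Hacd4, St8sia4, Snx5, Gpr65, Pla2g4a, Fcgr4 and BE692007 (0.47) came next. Beside Jchain, Igkc, Igha and Mzb1, Palb2 led at 0.65 and Ccdc163 followed at 0.61. Ifitm6, Zbtb45, Tgtp1, Gja4, Mmp9, Sds, Cd47 and Fam167a made up the rest, down to 0.49. The points share depth and library quality, and the values are descriptions.

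Some genes on wider lists for the B cell lineage were called over all libraries, where no member was. Of 20 genes for the B cell surface and antigen receptor signalling, 6 were called higher and 0 lower over all libraries, beside 13.2% and 4.99% of all genes, with a list median of 0.46. Ly6d rose from 11 to 540 counts (median 28.5) in controls to 501 to 3397 (median 1504.5), a log2FC of 3.87 (SE 0.54, adjusted p = 6.6e-06). Cd180, a Toll-like receptor relative, had a log2FC of 1.85, the B cell inhibitory receptors Cd72 and Cd22 had 1.45 and 1.38, and the kinase Btk and the tetraspanin Cd37 were the other called genes, at 1.24 and 1.04. Of the 20 listed genes, 14 were not called. Ly6d counts were far above those of Cd79a, which had a median of 35.5 in high-fat libraries. The cell source of the Ly6d counts was not tested. Several of the called genes are also expressed by myeloid cells.

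Markers of other cell types were counted beside them. Of 8 macrophage genes, 4 were called higher over all libraries, among them Adgre1 (log2FC 1.32), Cd68 (1.84), Ccr2 (2.12) and Trem2 (3.47). The summed level of the 8 ran from 159 to 486 CPM in high-fat livers and from 88.6 to 375 in controls. All 4 neutrophil genes tested were called higher, with a list median of 3.34, and high-fat replicate 3 held 165 of their summed CPM against a median of 8.58. Of 9 T cell genes 1 was called higher, of 5 natural killer genes 1, and of 7 plasmacytoid dendritic cell genes 1, Runx2 (log2FC 1.59). These shares lie near the 13.2% of all genes called higher. The part of these cells in the B cell lists was not tested. Of 6 hepatocyte genes, 4 were called lower and 1 higher (Cyp3a11).

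Among transcription factors of the lineage, 2 of 9 were called higher over all libraries, Pou2f2 at 1.58 and Bcl11a, which had a mean of under 10 counts a library, beside 13.2% of all genes. Pax5, which holds B cell identity, had a log2FC of 0.48 (SE 0.39, adjusted p = 0.345). Of 11 plasma cell genes tested, 3 were called higher, against the same share. They were Tnfrsf13b, a receptor for the survival factors BAFF and APRIL, at 1.84, the plasma cell regulator Prdm1 at 1.21, and Cd38 at 0.61. Xbp1 and Sdc1, also plasma cell genes but present at 1775 counts or more in every library, were not called (−0.11 and −0.30). Tnfrsf17 had at most 1 count in a library.

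The calls of the next lists stand beside 13.2% of all genes called higher over all libraries. Of 9 genes tested for signals that draw or sustain B cells, 3 were called higher. They were Ltb at 1.67, Tnfsf13b, which encodes BAFF, at 1.12 and the chemokine Ccl19 at 0.91. Cxcl13, which draws B cells into follicles, had 0 to 39 counts in high-fat livers and 1 to 53 in controls, with a log2FC of −1.31 (SE 0.59, adjusted p = 0.0802). Of 4 germinal centre genes tested, S1pr2 (1.04) and Mybl1 (1.45) were called higher, and Rgs13 had 0 counts in all libraries. None of 6 genes for IgA transport and mucosal homing was called, and the IgA carrier Pigr had a log2FC of −0.37 (SE 0.15, adjusted p = 0.0513). Lymph node stroma markers had 1 gene called of 4, Ccl19 again, and Glycam1 had at most 1 count. Gut markers Cdx2 and Reg3g and the pancreas gene Cpa1 had 0 counts in all libraries. Of 3 gut and 1 pancreas genes tested, none was called over all libraries.

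The lists were also read within each set, where 16% of all genes were called higher and 10.5% lower in the Xist-below libraries and 2.76% higher in the Xist-above libraries. In the Xist-below libraries, 8 of 20 B cell surface genes were called higher (list median 1.25, all genes −0.05). Ly6d had 5.21 (adjusted p = 1.2e-06), Cd180 2.80, Cd22 2.28 and Cd72 2.13. In the Xist-above libraries 1 of 20 was called, Ly6d at 2.55, and the median was 0.00. By the interaction term 2 of 20 were called, Cd72 (1.46, adjusted p = 0.00858) and Cd37 (1.33, adjusted p = 2.8e-04), beside 2.57% of all genes. Of the factors, Spib (1.53), Ikzf3 (1.36) and Pou2f2 (2.48) were called higher and Foxo1 (−0.59) lower in the Xist-below libraries, and none of 9 was called in the Xist-above libraries. By the interaction term 0 of 9 factors were called, so a difference between the sets was not shown for them.

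Of 9 attraction and survival genes, 2 were called by the interaction term. Tnfsf13, which encodes APRIL, had a log2FC of 1.59 in the Xist-below libraries and −0.16 in the Xist-above libraries (interaction 1.76, adjusted p = 0.00441). Ltb had 2.80 and 0.39 (interaction 2.41, adjusted p = 0.00118). The homing integrins Itgb7 and Itga4 were called higher in the Xist-below libraries, at 1.64 and 1.29, and Pigr was called lower, at −0.66. By the interaction term, Itgb7 was called (1.47, adjusted p = 0.00889) and Itga4 (adjusted p = 0.0108) and Pigr (adjusted p = 0.137) were not. T cell genes were called in 6 of 9 there and in 0 of 9 in the Xist-above libraries, with Cd8a at 3.02, and macrophage genes in 5 of 8 and 3 of 8, with Adgre1 at 2.50 in the Xist-below libraries. The interaction term called 2 of 9 T cell genes and 2 of 8 macrophage genes. The summed macrophage level was 88.6 to 161 CPM in Xist-below controls and 196 to 375 in Xist-above controls. Control Xist-below libraries were the lowest of the 4 groups in median for macrophage and T cell genes, as they were for Cd79a, Cd79b and Ms4a1.

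**Figure D5:**
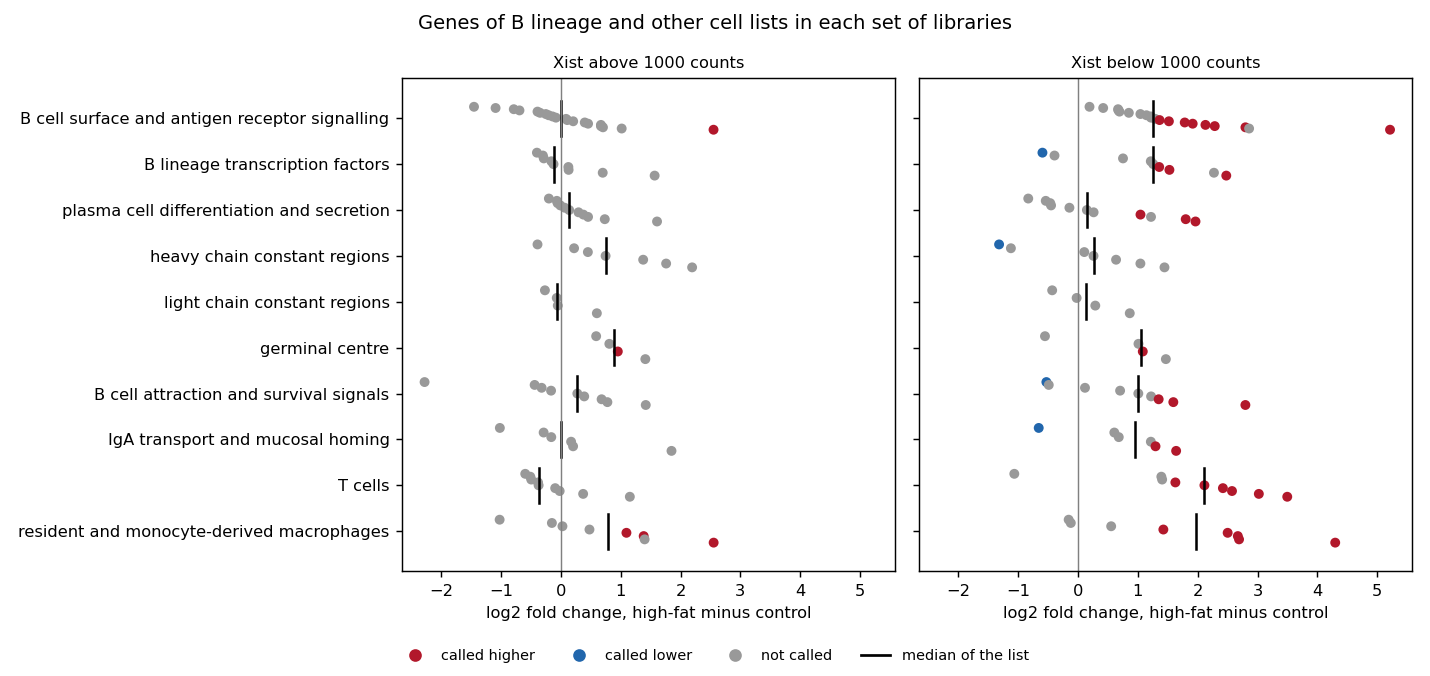
log2FC (x axis, high-fat minus control) of the genes of 10 lists (y axis) within each Xist set, coloured by call, with a line at the median of the list. The B cell surface list has its median at 0.00 in the Xist-above and 1.25 in the Xist-below libraries.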

How the data were processed

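RNA-Seq of whole liver was analysed in 12 high-fat and 12 control diet libraries. The deposited values are raw counts for each gene in 1 table, made with STAR 2.7.3a on mm10 per the labels, with bcl2fastq also named. The counting annotation is not given in the sources used here, and 51745 of 56205 IDs had a symbol. Genes with at least 1 count in 12 or more libraries were tested with edgeR 4.0.16 (R 4.3.3, TMM, quasi-likelihood, Benjamini-Hochberg). A gene was called at adjusted p ≤ 0.01 and |log2FC| > 0.5. Set comparisons used a model with 4 means. DESeq2 1.42.0 and limma 3.58.1 were alternatives. Shares and correlations used permutation with 100000 resamples (SciPy 1.17.1), or exact enumeration within sets. Scripts were tested on simulated data. Members and lists were chosen with earlier results of these data known. Named genes were the members, the constant genes, the 10 most alike genes, genes that set a library apart and, from each list, at most 4 called genes with a mean of 10 or more counts, by largest change. Bcl11a, Pax5, Xbp1, Sdc1, Cxcl13, Btk, Cd37 and genes near 0 were named after their values were seen. Pairs of libraries within a diet differed by more than sampling noise (chi-square over degrees of freedom of 9.48 or more). No label ties a library to a cage or batch, so p-values measure the spread between these libraries. The interval for the top variable segment and the floors cover counting error only. Intervals of log2FC were taken from the standard error of the edgeR quasi-likelihood fit, so they also include the spread between libraries. Some genes are not reported here.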

Additional observations from a re-analysis of the deposited data

Results flagged for a closer look

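The diet difference of Cd79a and Ighm differed between the Xist sets at an interaction adjusted p (edgeR) under 0.05 though not under 0.01. It was 1.71 on the log2 scale for Cd79a (Xist-below minus Xist-above, adjusted p = 0.0306) and −1.54 for Ighm (adjusted p = 0.0302). When each of 24 libraries was left out, these ran from 1.52 to 2.02 (adjusted p from 0.0121 to 0.0610) and from −1.80 to −1.20 (adjusted p from 0.0111 to 0.0714). The sets were defined from the data by Xist counts, and their numbers matched replicates 1 to 6 and 7 to 12 in both diets, so any other feature of those numbers cannot be told apart from them.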

How the results depend on the processing

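No member was called over all 24 libraries in any fit that kept both sets at FDR ≤ 0.01. At adjusted p of 0.05 with no fold limit 1 was called higher, Igha, and all genes gave 3709 higher and 3388 lower. Library totals gave 3827 higher and 226 lower, at least 10 counts in every library gave 1226 higher, and |log2FC| > 1 gave 216 lower. Only Xist-above libraries gave 525 and 162, only Xist-below ones 1430 lower, with 1 member called each way. Leaving out 1 library gave 2137 to 2464 higher and 745 to 995 lower, with 0 members either way, and 0 members by interaction. By interaction with library totals 1 was called. With only Xist-above libraries, the log2FC turned to −0.42 for Cd79a, −0.22 for Cd79b, −0.41 for Ms4a1, 0.23 for Ighm and 0.16 for Jchain. With library totals it turned to 0.20 for Igkc, 0.18 for Jchain and 0.12 for Mzb1. Mzb1 turned also under limma-voom (0.13) and only Xist-below libraries (0.15). Same-numbered libraries of the diets correlated in their deviations at 0.155 to 0.541 for 11 of 12 numbers and at −0.0935 for number 9, so the numbers were not taken as a pairing. Within each diet the Xist sets follow the same numbers. The replicate block turned Mzb1 to 0.017, called no member and gave 2063 higher and 844 lower over all genes. Under that pairing the share difference was 3.30 points for Igha (exact sign permutation p = 0.0156) and −2.29 for Igkc. Leaving out 1 library gave Cd79a 0.24 to 0.48, Cd79b 0.36 to 0.65, Ms4a1 −0.0045 to 0.34, Ighm −0.68 to −0.31, Igkc −0.35 to 0.14, Igha 0.71 to 1.11, Jchain −0.37 to 0.016 and Mzb1 −0.30 to 0.17. It gave 2.23 to 3.67 points for Igha and −2.97 to −1.54 for Igkc. The Igha share difference was 0.365 points in Xist-above libraries (exact permutation p = 0.810) and 2.48 between medians (permutation p = 0.0611). With a pseudocount of 0.1, 3 control pairs passed, and 2 with set means subtracted. The causes were not tested.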
